A study of Mus musculus with 2 samples.

Results

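Mouse tendon cells that had been sheared for 12 h were set against 12 h control cells on a single microarray that carries a red and a green channel, which is 1 of the 2 arrays of the series. The array was chosen by its title. Channel 1 (Cy3) carried RNA of control tenocytes at 12 h, and channel 2 (Cy5) carried RNA of cells sheared at 50 rpm. The other array of the series holds pooled sheared cells over pooled control cells at 6 h and is used only for values set beside those of 12 h. For the 6 h cells the labels give no shear speed. For the 12 h cells the labels mention no pooling, no strain, no age and no genotype, and they describe both arrays as fibroblasts under stimulation. The study asked how mechanical shear affects cells of flexor tendon.

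Tenocytes are the fibroblast-like cells that lay down and maintain the collagen fibres of tendon. They sense load through integrins, the actin cytoskeleton and primary cilia, and gliding of a flexor tendon in its sheath exposes cells to fluid shear. Shear and other mechanical stimuli are known to engage stress pathways, growth factor release and matrix turnover in connective tissue cells.

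Of 42624 spots, 41717 had a value at 12 h and 907 had none. Values are log2 ratios of sheared over control after the array median of -0.479 was subtracted, so a value of 1 is a 2-fold higher ratio than that of the median spot. The base of 2 is assumed, and the direction is likely rather than stated, because the labels place sheared RNA in Cy5 and the database that holds the array images stores red over green. If the ratio runs the other way, every sign below turns. A gene was given the median of its probes that carry exactly 1 gene symbol, which gave 10733 genes, of which 5579 had 2 or more probes. There was no replicate array and no dye swap, so no difference could be tested and no p-value is given. The spread between different probes of the same gene was the only error estimate, with a pooled SD of 0.855 log2, or 1.81-fold. It covers clones and spots and not cultures. Because the table holds ratios alone, it cannot show whether a gene was abundant in these cells, nor whether the cells carried the defining markers of tenocytes.

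Probes of one gene agreed well for part of the array only. Among the 2945 genes with exactly 2 probes, the probes differed by a median of 0.544 log2, but in 346 genes they differed by more than 2 log2 units. Genes are therefore said to have agreeing probes when at least 2 probes were measured, all lay on the same side of 0 and the highest and lowest were at most 1 log2 unit apart. This held for 2664 genes. The rule leaves out genes near 0, so the share past a threshold is higher among these genes by construction.

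Across all genes, 1558 were at least 2-fold higher in the sheared channel, which is 14.5% of those measured, and 2203 were at least 2-fold lower, or 20.5%. Of the genes past 2-fold, 41.4% were thus higher, and this split was 16.5% with the values as deposited, whose median is not 0. Genes with 2 or more probes were at least 2-fold higher in 17.4% and lower in 16.6%. At 1.5-fold the shares of all genes were 24.4% higher and 33.1% lower, and the median of all genes was -0.14. Among genes with agreeing probes the balance was the opposite, with 667 at least 2-fold higher (25% of them) and 443 at least 2-fold lower (16.6%). At 1.5-fold, 40.2% of the agreeing genes were higher and 28.5% lower. The balance depends on the centring: 60.1% of the agreeing genes past 2-fold were higher, against 27.2% without centring.

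The lower tail rested more on single probes than the upper tail. Genes with 1 probe had a median of -0.31 over 5154 genes, and 24.8% of them were at least 2-fold lower against 11.4% higher. Genes with 5 or more probes had a median of 0.31 over 599 genes, and 9.18% were at least 2-fold lower against 26.2% higher. Of the 582 genes that were at least 4-fold lower, 379 had 1 probe and 87 had agreeing probes. Of the 274 that were at least 4-fold higher, 126 had 1 probe and 101 had agreeing probes. The highest genes on 1 probe were Zfp12 at 3.75, Noxred1 at 3.58 and Wdr63 at 3.58, and the lowest were Rbms3 at -8.0, Rps6ka5 at -7.09 and Frat2 at -5.98. None of these has a check within the array.

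**Figure D1:**
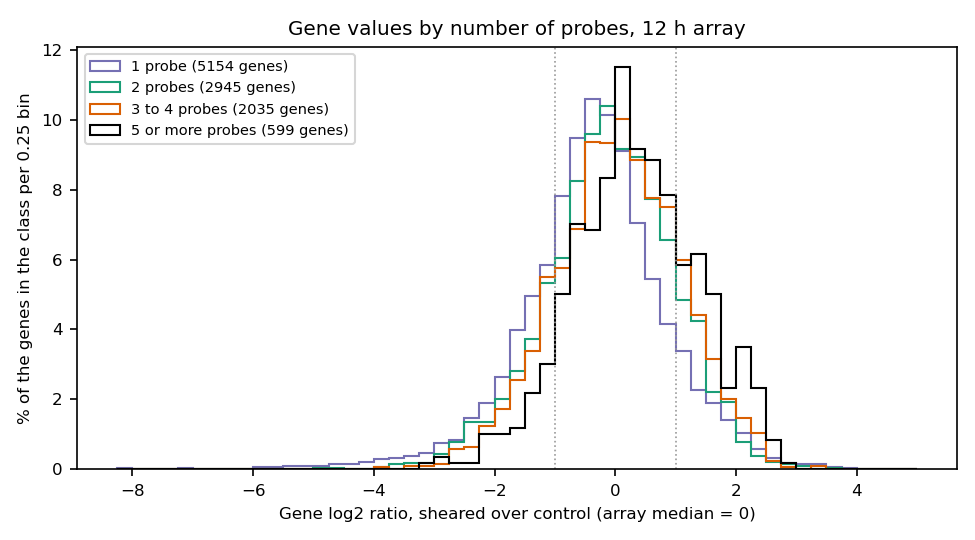
Share of genes (%, y axis) per bin of 0.25 log2 units of the gene value (x axis, log2 ratio of sheared over control, array median at 0) in 4 classes by number of probes; dotted lines mark 2-fold. Genes with 1 probe (median -0.31) lie lower than genes with 5 or more probes (median 0.31), and the long lower tail belongs mostly to genes with 1 probe.

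The highest genes with agreeing probes were a growth factor, a metal-binding protein and regulators of growth and damage responses. Hbegf, a membrane-anchored ligand of the EGF receptor, read 3.46 and 3.78 on its 2 probes, a gene value of 3.62 or 12.3-fold. Mt2, a metallothionein that binds zinc and other metals, read 3.11 and 3.04, with a gene value of 3.08. Its close paralog Mt1, named after its values were seen, stood at 3.26 with 4 probes from 1.02 to 3.52, and cross-hybridisation between the pair was not tested. Lats1, a kinase of the Hippo pathway that restrains YAP, read 2.82 and 3.03. Krt16, a keratin of stressed epithelium, read 2.86 and 2.73. Gstp1, which conjugates glutathione to electrophiles and also has a close copy, read 2.68 and 2.78. The probes of Hbegf, Mt2, Lats1, Krt16 and Gstp1 lay within 1 pooled SD of each other and all lay above 2.5. These genes were chosen for high values and agreeing probes, so neither trait is separate support.

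Further down the same ranking came genes of growth arrest, polyamine synthesis and protein synthesis. Gadd45b, a stress-induced growth arrest gene, read 2.55 and 2.56. Pdrg1, a p53- and DNA damage-regulated gene, read 2.59 and 2.64. Amd2, an S-adenosylmethionine decarboxylase of polyamine synthesis, read 2.53 and 2.36. Gkap1, an anchoring protein of cGMP-dependent kinase, read 2.38 and 3.01. The other 11 of the 20 highest genes encode 9 ribosomal proteins, the mitochondrial import protein Tomm7 at 2.52 and Uqcrh, a subunit of respiratory complex III, at 2.47. Csrp2, a LIM-domain protein of muscle-like and fibroblast cells, was the highest gene with 5 or more probes on one side of 0, at 2.77. Its probes read 2.93, 2.77, 1.0, 3.04 and 2.59, so that 1 of the 5 stood apart from the rest.

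At 6 h the same genes stood at different heights. Hbegf stood at 3.52 at 6 h, Mt2 at 4.24, Amd2 at 2.24, Gadd45b at 2.23, Gstp1 at 2.12 and Pdrg1 at 2.05, so they were already more than 4-fold higher at the earlier time. Lats1 stood at 0.95, Krt16 at 0.89, Gkap1 at 0.77 and Csrp2 at 0.56 at 6 h, each less than 2-fold. Between these lay most of the ribosomal genes, Tomm7 at 1.12 and Uqcrh at 1.41. The difference between the times was not tested, since each time has 1 array.

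The lowest genes with agreeing probes encode regulators of signalling, ubiquitin removal, chromatin and the cytoskeleton. Socs7, a suppressor of cytokine signalling, read -3.44 and -4.38, a gene value of -3.91. The deubiquitinase Usp37 read -4.0 and -3.28. Mtmr3, a phosphoinositide phosphatase, read -3.34 and -3.33. Ssh1, which dephosphorylates and activates the actin-severing protein cofilin, read -3.45 and -3.15. Lpp, a LIM protein of focal adhesions, read -2.97 and -3.58. Macf1, a giant protein that links microtubules to actin, read -3.23 and -3.17. Each of these 6 gene values lay more than 3 log2 units below the array median.

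Usp9x, a deubiquitinase, was the lowest gene among those with 5 or more probes on one side of 0. Its 6 probes read -2.70, -2.52, -3.05, -3.15, -3.38 and -3.0, which gave -3.03 with a probe SD of 0.31. Trip12, a ubiquitin ligase, stood at -2.19 over 6 probes with a probe SD of 0.32, and Pdlim5, a PDZ and LIM adaptor, at -2.48 over 5 probes with a probe SD of 0.40. The other members of this group were less even. Taok1, a kinase, stood at -2.80, but its 5 probes ran from -7.39 to -1.28, and Apc, the Wnt pathway scaffold, stood at -2.66 with probes from -2.88 to -0.31.

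The remaining lowest genes include Zmynd8 (-3.37), Epc2 (-2.80), Rere (-2.88), Cdyl2 (-2.95) and the nuclear receptor coactivator Ncoa2 (-2.69), which act on chromatin or transcription. Plec, the cytoskeletal linker plectin, stood at -2.84, Eps8, an actin regulator, at -2.70, Afap1l2, an actin filament-associated adaptor, at -2.73 and Cttnbp2, a cortactin-binding protein, at -2.74. Fndc3b stood at -3.09, Hdc, which makes histamine, at -2.98, Ptprd, a receptor tyrosine phosphatase, at -2.96 and Prkg1, the cGMP-dependent kinase, at -2.75. At 6 h every one of the 20 lowest genes also lay below 0, from -0.52 for Afap1l2 to -3.95 for Cdyl2.

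**Figure D2:**
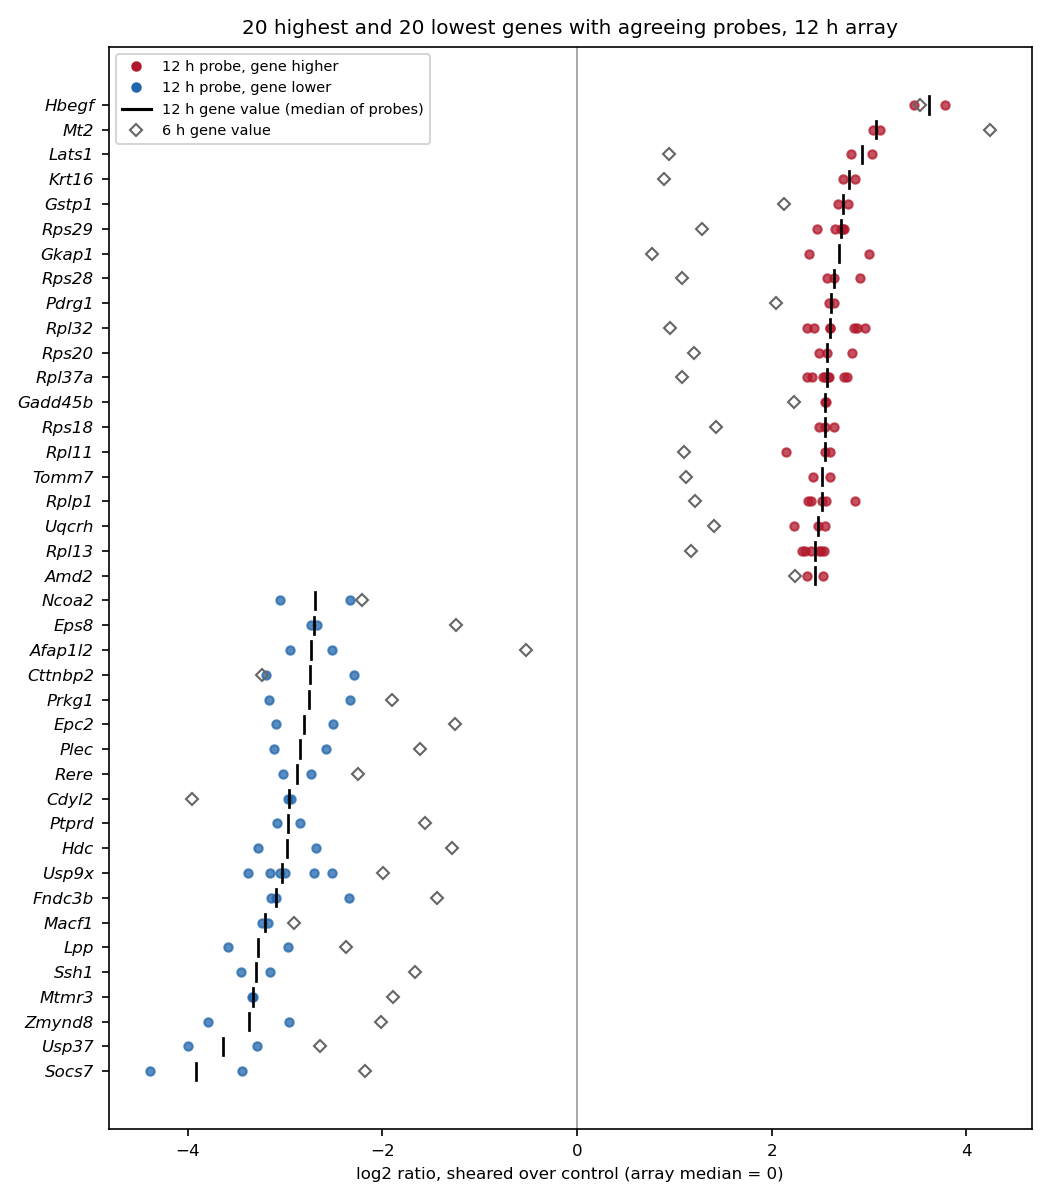
The 20 highest and 20 lowest genes with agreeing probes at 12 h: filled points are single probes, black ticks the gene value (median of probes) and open diamonds the gene value at 6 h, all as log2 ratio of sheared over control with the array median at 0. Hbegf (3.62) and Mt2 (3.08) lead, ribosomal proteins sit near 2.5, and the lowest genes run from Socs7 (-3.91) to Ncoa2 (-2.69); 6 h values lie on the same side for all 40.

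The agreeing genes past 2-fold at 12 h were also followed to the 6 h array, where 18.2% of all 10348 genes were at least 1.5-fold higher and 31.3% were 1.5-fold lower. All 667 genes at least 2-fold higher at 12 h had a 6 h value, with a median of 0.84 against 1.43 at 12 h. Of these, 518 were at least 1.5-fold higher at 6 h and 2 were 1.5-fold lower. Of the 442 agreeing genes at least 2-fold lower at 12 h that had a 6 h value, 342 were 1.5-fold lower at 6 h and 2 were 1.5-fold higher, with medians of -0.92 at 6 h and -1.44 at 12 h. The 6 h array was not used to choose these genes, but both arrays carry the same probes.

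Upstream sequence was examined for genes that led the higher list. The windows are the 250 bases before the RefSeq start of the gene (build GRCm38.p6), read in the direction of the gene. Mt2 is shown for the core of the metal response element, TGCACNC or TGCGCNC, which is bound by the zinc-sensing factor MTF1, and Gstp1 for the AP-1 element TGANTCA, bound by Fos and Jun proteins. Rps18 and Uqcrh, a ribosomal and a respiratory gene, are shown for the ETS element CCGGAAG. Capitals mark every match to any of these elements on either strand.
Mt2, chr8:94172368-94172617, plus strand: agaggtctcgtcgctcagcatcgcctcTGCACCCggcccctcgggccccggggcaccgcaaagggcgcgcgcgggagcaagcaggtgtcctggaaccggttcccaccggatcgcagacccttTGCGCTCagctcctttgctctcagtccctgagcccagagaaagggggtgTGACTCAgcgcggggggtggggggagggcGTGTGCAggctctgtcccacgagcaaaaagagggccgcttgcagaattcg
Gstp1, chr19:4037913-4038162, minus strand: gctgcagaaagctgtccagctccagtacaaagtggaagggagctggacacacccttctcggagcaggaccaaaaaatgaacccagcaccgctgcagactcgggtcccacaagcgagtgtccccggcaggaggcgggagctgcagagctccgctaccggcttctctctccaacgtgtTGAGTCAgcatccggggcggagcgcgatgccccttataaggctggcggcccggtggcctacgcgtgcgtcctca
Rps18, chr17:33955666-33955915, minus strand: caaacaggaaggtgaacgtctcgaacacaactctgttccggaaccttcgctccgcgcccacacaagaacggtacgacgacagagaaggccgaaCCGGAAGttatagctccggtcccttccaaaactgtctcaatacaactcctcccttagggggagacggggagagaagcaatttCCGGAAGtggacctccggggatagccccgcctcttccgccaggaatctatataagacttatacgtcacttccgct
Uqcrh, chr4:116075071-116075320, minus strand: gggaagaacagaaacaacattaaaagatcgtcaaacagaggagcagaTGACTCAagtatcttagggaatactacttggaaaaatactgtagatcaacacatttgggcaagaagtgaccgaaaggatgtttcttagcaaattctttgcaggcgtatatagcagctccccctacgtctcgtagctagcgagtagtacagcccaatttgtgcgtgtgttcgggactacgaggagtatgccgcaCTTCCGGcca

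Mt2 held 3 matches to the metal response core, whose outer ends lay 223, 128 and 50 bases before the start, and an AP-1 match at 79. With the bases gc that follow it, this AP-1 match also fits the antioxidant response element TGACNNNGC, which was not marked. Gstp1 held 1 match, to AP-1, 74 bases before its start. Rps18 held 2 ETS matches, 157 and 75 bases before the start. Uqcrh held 1 ETS match, 10 bases before its start, and an AP-1 match at 203. AP-1 matches thus stood in 3 of these 4 windows, but the windows were chosen after values or matches had been seen. The metal response core is short and was present in 28.9% of the 10980 windows of the 8653 measured genes that have one, some genes having several, so a single match says little. With a looser core, TGCNCNC, it was 51.8%. The AP-1 element was present in 5.17% of them and the ETS element in 12.2%.

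By the same count, the ETS element was present in 10 of 23 windows of the small ribosomal subunit genes (43.5%) and in 8 of 33 of the large subunit genes (24.2%). Among agreeing genes at least 2-fold higher it was present in 107 of 657 windows (16.3%), and among those at least 2-fold lower in 48 of 493 (9.74%). The E box CACGTG, bound by Myc, USF and related factors, was present in 12.3% of windows of the higher genes, 7.30% of the lower and 8.02% of all measured genes. The metal response core differed little, at 29.5%, 28.8% and 28.9%, and so did the antioxidant response element TGACNNNGC, at 12.5%, 12.4% and 11.6%. The AP-1 element was present in 5.18% of windows of the higher genes, 6.09% of the lower and 5.17% of all measured genes. The median GC content of the windows was 58.8% for the higher genes, 63.6% for the lower and 58.8% for all measured genes. A match is a run of letters and was not tested for binding.

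Gene families were compared by their median and by how many members were at least 1.5-fold higher or lower, to be read against the 24.4% and 33.1% of all genes. Protein synthesis led. All 39 large-subunit and all 22 small-subunit ribosomal proteins were at least 2-fold higher, with medians of 2.24 and 2.26, or 4.72-fold and 4.78-fold. Their spread was narrow, from 1.19 for Rpl3 to 2.65 for Rpl37 and from 1.27 for Rps19 to 2.71 for Rps29. Rps19 rested on 2 probes that disagreed, at 0.14 and 2.41, and the 6 probes of Rpl37 ran from 0.84 to 2.76. Probes agreed in 26 of the 39 large-subunit and 13 of the 22 small-subunit genes, against 2664 of all 10733 genes. The 5 probes of Rps29 read 2.73, 2.71, 2.74, 2.47 and 2.65, and the 8 probes of Rpl37a ran from 2.37 to 2.77. Processed pseudogenes of ribosomal proteins are common, and their part in the signal was not tested. At 6 h both subunits had a median of 1.17.

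Other parts of the translation machinery stood lower and were less uniform. Mitochondrial ribosomal proteins had a median of 1.0 over 73 genes, with 52 at least 1.5-fold higher and 1 lower, led by Mrpl23 at 2.22. Elongation factors stood at a median of 1.15, 6 of 8 being higher, including Eef1b2 at 2.11 (probe SD 0.14). Initiation factors stood at a median of 0.59, 18 of 36 being higher and 3 lower. Within that family the eIF3 subunits Eif3k (2.27) and Eif3i (2.0) and the ribosome maturation factor Eif6 (1.98) were high, while the scaffold Eif4g3 read -1.99 and -1.91 on its 2 probes. Aminoacyl-tRNA synthetases, which charge tRNAs, lay near 0, with a median of 0.04, 6 of 26 higher and 7 lower. The members with agreeing probes included Hars at 0.90 and the bifunctional Eprs at -0.77 over 5 probes, and Eprs stood at 0.54 at 6 h.

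The respiratory chain was also high. Complex I had a median of 1.75 with 32 of 33 genes at least 1.5-fold higher, complex III 1.76 with 8 of 8, and ATP synthase 1.89 with 15 of 17, and none of these genes was 1.5-fold lower. Cytochrome c oxidase stood at a median of 1.98, 12 of 17 being higher. Its 5 members under 1.5-fold were singled out with their values in view and include the isoforms Cox7b2 at -0.33, Cox8b at 0.03, Cox8c at 0.24 and Cox6b2 at 0.58, known mainly from testis or muscle. Being tissue-restricted did not go with a low value in every case, since the heart and muscle isoform Cox6a2 stood at 2.18 over 3 probes. Cox4i1 stood at 2.20 (probe SD 0.08, 4 probes) and Cox7a2 at 2.23 (probe SD 0.13). Mitochondrial import proteins stood at a median of 1.39, 17 of 20 being higher, and tricarboxylic acid cycle enzymes stood at 0.58 with 10 of 21 higher. Mitochondrial carriers were mixed, with a median of 0.10, or 0.79 over the 12 with 2 or more probes, and the adenine nucleotide carrier Slc25a5 stood at 1.94 and the phosphate carrier Slc25a3 at 1.44.

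Protein folding and breakdown followed. The proteasome core stood at a median of 1.53, 15 of 18 being higher and 1 lower, and the cap 1.26 with 14 of 18 higher. Core members outside this pattern, named once their values had been seen, were the immune subunits Psmb8 at 0.02 over 8 probes and Psmb9 at -0.30, and the thymus subunit Psmb11 at -0.87 on 1 probe. The chaperonin TCP-1 and prefoldin, which fold actin and tubulin, stood at a median of 1.27, 13 of 14 being higher. Tubulins themselves stood at a median of -0.11, 1 of 13 being higher and 4 lower. DnaJ co-chaperones stood at a median of 0.36, 15 of 35 being higher and 6 lower. Ubiquitin-conjugating enzymes stood at a median of 0.52, 11 of 27 being higher and 3 lower, led by Ube2s at 2.37 (probe SD 0.12), while Ube2g1 read low at -1.81.

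Ubiquitin-specific proteases lay on the other side, with a median of -0.64, 19 of 36 lower and 5 higher. Besides Usp37 and Usp9x, Usp42 stood at -1.88 over 3 probes, whereas Usp19 stood at 1.26 and the splicing protein Usp39 at 1.16. F-box proteins, the substrate receptors of ubiquitin ligases, stood at a median of -0.24, 16 of 42 being lower and 10 higher, close to the shares of all genes. Tripartite motif proteins stood at a median of -0.48, 16 of 33 being lower and 2 higher.

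Redox enzymes were high as families. Glutathione S-transferases stood at a median of 1.24, 12 of 18 being higher and 1 lower, including Gstm5 at 1.34 (probe SD 0.15) beside Gstp1. Peroxiredoxins and thioredoxins stood at a median of 1.01, 13 of 19 being higher and 1 lower. Txn1, the cytosolic thioredoxin, stood at 2.33 over 7 probes (probe SD 0.16) and Prdx1, a peroxide reductase, at 2.25 over 5 probes (probe SD 0.16). The lower member was Txndc2, at -1.17.

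The secretory and lysosomal systems were higher too. Translocon, signal recognition and signal peptidase genes, which bring new proteins into the endoplasmic reticulum, stood at a median of 1.40, 18 of 24 being higher and 1 lower. Sec61g stood at 2.18 over 5 probes (probe SD 0.06) and Ost4, an oligosaccharyltransferase subunit, at 2.27, against -0.79 for Sec63. Cathepsins stood at a median of 0.93, 10 of 15 being higher and none lower, and other lysosomal proteins 0.66 with 12 of 18 higher and none lower, including Cd63 at 1.76 over 5 probes. The vacuolar proton pump stood at a median of 0.82, 10 of 15 being higher. Rab GTPases and coat proteins stood at a median of 0.01, with 10 of 41 and 10 of 29 higher. Of 8 Arf GTPases, 5 were higher and 1 lower, and their median was 0.98.

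Within several molecular machines, picked with their values in view, some small and large subunits lay on opposite sides of 0. In dynein, the light chains Dynll1 and Dynlrb1 stood at 2.27 over 6 probes (probe SD 0.19) and 1.90 over 3 probes (probe SD 0.15), and the heavy chain Dync1h1 read -1.55 and -1.47. Myosin light chains and tropomyosins stood at a median of 0.67, 8 of 13 being higher and none lower, including Myl9 at 1.08 (probe SD 0.10). Myosin heavy chains stood at a median of -0.22, 8 of 18 being lower and 3 higher, and -1.23 over the 14 with 2 or more probes, including the non-muscle heavy chain Myh9 at -1.86. In the proton pump, Atp6v1g1 stood at 1.55 over 3 probes and the catalytic subunit Atp6v1a at -0.97 over 4 probes (probe SD 0.28). Atp6v1a was the only 1 of the 15 pump genes that was at least 1.5-fold lower. RNA polymerase subunits stood at a median of 1.05, 15 of 25 being higher and 3 lower. There, the small subunits Polr2g (2.19, probe SD 0.05), Polr2d (2.14) and Polr2f (1.80) were high, but Polr3g, a small subunit of RNA polymerase III, read -0.82 and -0.85. Among the large catalytic subunits, Polr1a of RNA polymerase I read -3.22 and Polr3b of RNA polymerase III read -2.34, on 1 probe each. Polr2a, the largest subunit of RNA polymerase II, stood above 0 at 0.77. Neither Polr3g nor Polr2a followed the contrast.

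Splicing proteins lay above the median of all genes. Sm and LSm proteins, the small ring-forming proteins of spliceosomal particles, stood at a median of 0.76, 13 of 22 being higher and 2 lower, including Snrpg at 1.98 and Snrpe at 1.93. SR and hnRNP proteins stood at a median of 0.17, 7 of 26 being higher and 2 lower, led by Hnrnpc at 1.49 over 7 probes (probe SD 0.15). Nuclear pore proteins had none of 16 higher and 7 lower, with a median of -0.32.

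Several families of chromatin and transcription regulators were low. Lysine demethylases and methyltransferases, which edit histone marks, stood at a median of -1.03, 17 of 25 being lower and none higher. Kdm6a, which removes methyl groups from histone H3, read between -2.69 and -2.42 on 3 probes, Kdm5b stood at -1.86 and Setd2 at -1.57. Chromodomain, bromodomain and SWI/SNF proteins stood at a median of -0.54, 11 of 23 being lower and 1 higher, or -1.19 over the 15 with 2 or more probes, and the SWI/SNF members Smarcc1 and Smarca4 stood at -1.52 (probe SD 0.10) and -1.50. Zinc finger proteins of the Zfp series stood at a median of -0.67, 80 of 146 being lower and 17 higher. Sox and Fox factors stood at a median of -0.83, 18 of 32 being lower and 5 higher, including Foxo1 at -2.45 and Foxc1 at 1.70 (probe SD 0.17). Histones themselves stood at a median of 1.12, 9 of 17 being higher and 3 lower, and the replication-independent histone gene H3f3b stood at 1.91 over 8 probes (probe SD 0.15).

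Among signalling and scaffold families, several were low and others lay near the median of all genes. The MAP kinase cascade had a median of -0.29 with 7 of 20 lower and 4 higher, and phospholipases C -0.08 with 1 of 6 lower and 1 higher. Receptor tyrosine phosphatases had a median of -0.95 with 8 of 12 lower, and phosphodiesterases with adenylyl cyclases -1.11 with 9 of 14 lower, although the 6 of these with 2 or more probes had a median of -0.37. Dual-specificity phosphatases, which switch off MAP kinases, stood at a median of -0.81, 6 of 10 being lower and none higher. The list of giant cytoskeletal and adhesion scaffolds was the lowest of all 82 lists, with a median of -1.41, 15 of 22 lower and none higher. Its members were chosen by symbol with earlier results of these data known, so the rank is not separate support. Beside Macf1 and Plec the list held the giant cadherin Fat1 at -2.58 (probe SD 0.19). Kinesins stood at a median of -0.51, 9 of 21 being lower and 1 higher, and Kif1b read -2.58 and -2.53. Collagens stood at a median of -0.60, 15 of 29 being lower and 1 higher, although the 17 collagens with 2 or more probes had a median of -0.17. Among them, the tenocyte markers Col1a1, Col1a2 and Col3a1 stood at -0.35, -0.05 and -0.10, on 4, 5 and 5 probes. By contrast, Col12a1 stood at -2.64 and Col5a1 at -1.19. Of 7 laminins, 3 were lower and none higher, around a median of -0.52, and the laminin chain Lamc1 of basement membranes stood at -1.74 over 3 probes.

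Membrane transport and the cell cycle were close to the array as a whole, apart from TRP channels, with a median of -0.65 and 5 of 7 lower. Only 2 of the 7 TRP channels had 2 or more probes, with a median of -0.51, and none had agreeing probes. Solute carriers stood at a median of -0.28, 36 of 173 being higher and 55 lower. The taurine transporter Slc6a6 stood at -2.61 and the neutral amino acid transporter Slc38a2 at -2.11 (probe SD 0.16). Cyclins and their kinases stood at a median of -0.24, 5 of 29 being higher and 9 lower, including Cdk4 at 1.15 over 4 probes (probe SD 0.10). Replication proteins had a median of -0.08, with Pcna, the sliding clamp, at 2.27 over 6 probes (probe SD 0.22). S100 calcium-binding proteins stood at a median of 0.93, 8 of 12 being higher and 2 lower, and S100a6 stood at 2.02.

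**Figure D3:**
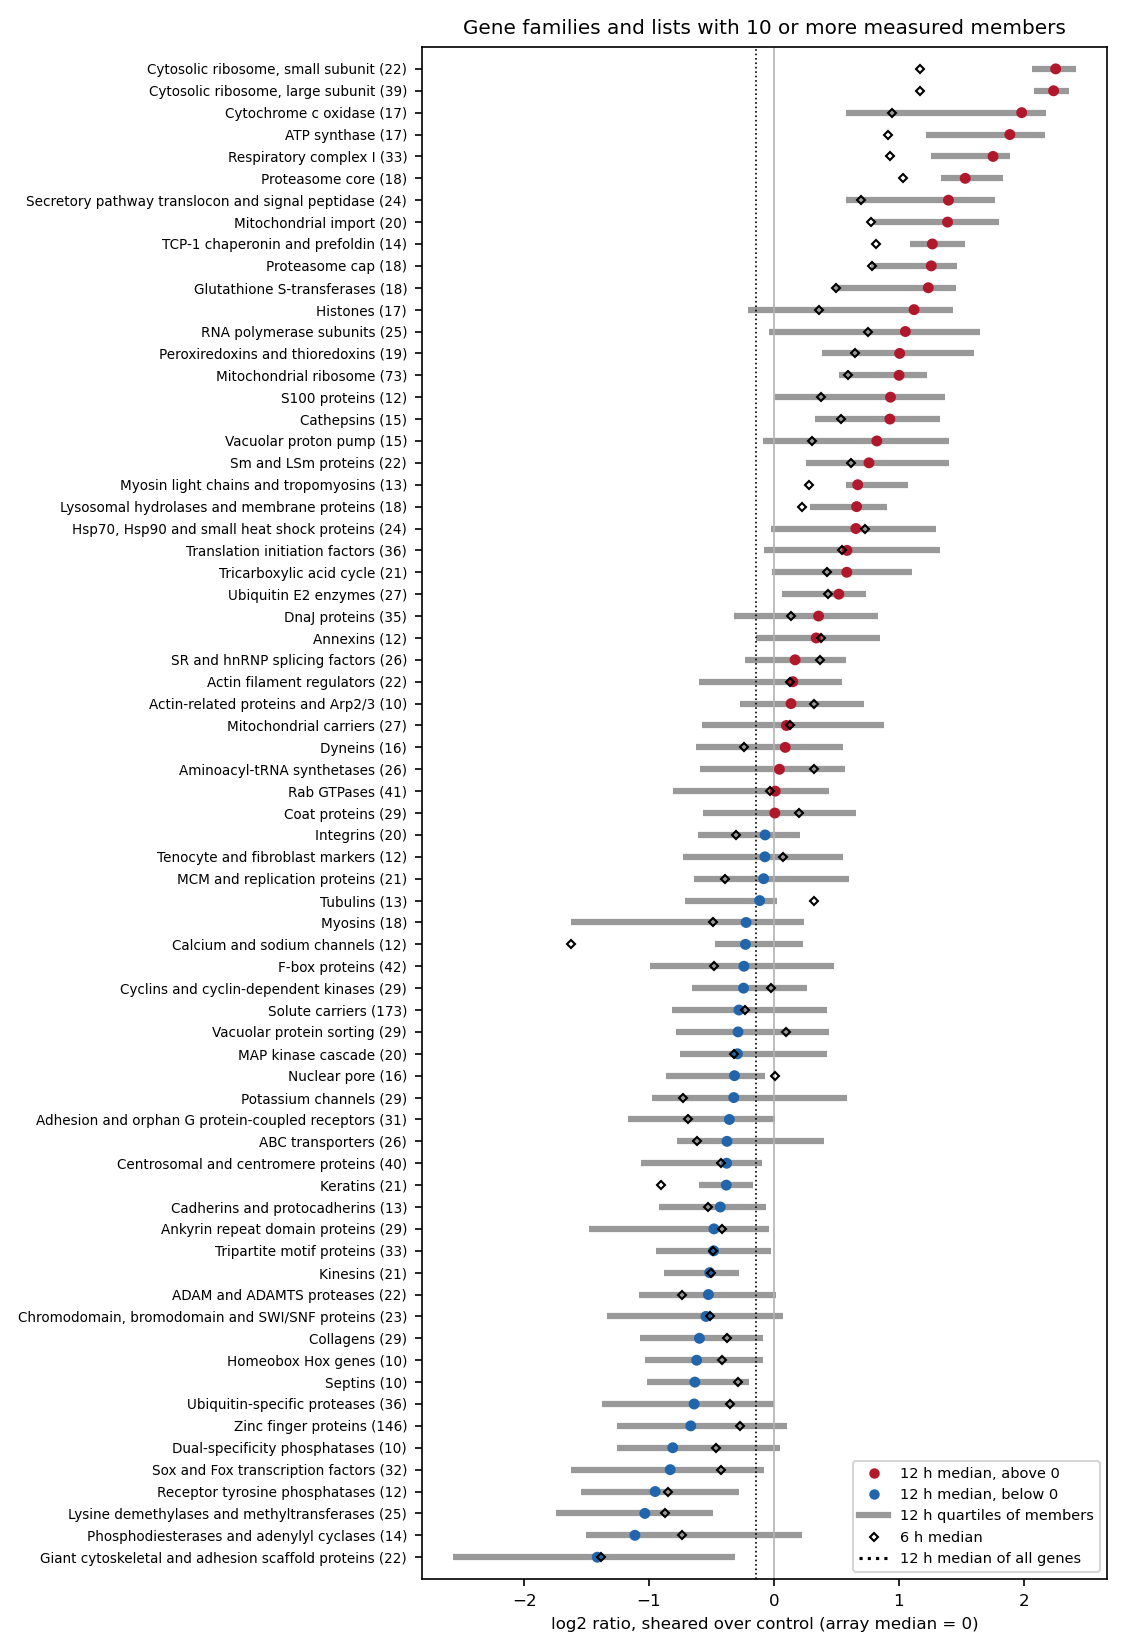
Median (points) and quartiles (grey bars) of the gene values at 12 h for the families and lists with 10 or more measured members, 1 list left out (number of members in brackets), with the 6 h median as open diamonds; the x axis is the log2 ratio of sheared over control with the array median at 0, and the dotted line is the median of all genes (-0.14). Ribosomal proteins (2.26 and 2.24) lie highest and giant scaffold proteins (-1.41), a list chosen with earlier results of these data known, lowest. Medians between 0 and 0.479 turn negative without centring.

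The position of a gene in these rankings moved with its genomic length. RefSeq gives a length for 10694 of the genes, and the bounds between 5 classes of equal size were 6.72, 15.2, 29.4 and 64.6 kb. The median value was 0.27 in the shortest class, 0.22 in the second, 0.03 in the third, -0.37 in the fourth and -0.84 in the longest. The share of genes at least 1.5-fold higher was 39.5% in the shortest class and 7.81% in the longest, and the share at least 1.5-fold lower was 19.4% and 60.3%. Genes in no listed family had medians of 0.15, 0.18, 0.02, -0.40 and -0.82 from the shortest to the longest class, so the shortest class was not the highest there. Among genes with agreeing probes, 70.0% of the shortest class were 1.5-fold higher and 73.2% of the longest were 1.5-fold lower. Genomic length includes introns, so it is not the length of the transcript on the array. The part of gene length in the family medians above was not tested.

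**Figure D4:**
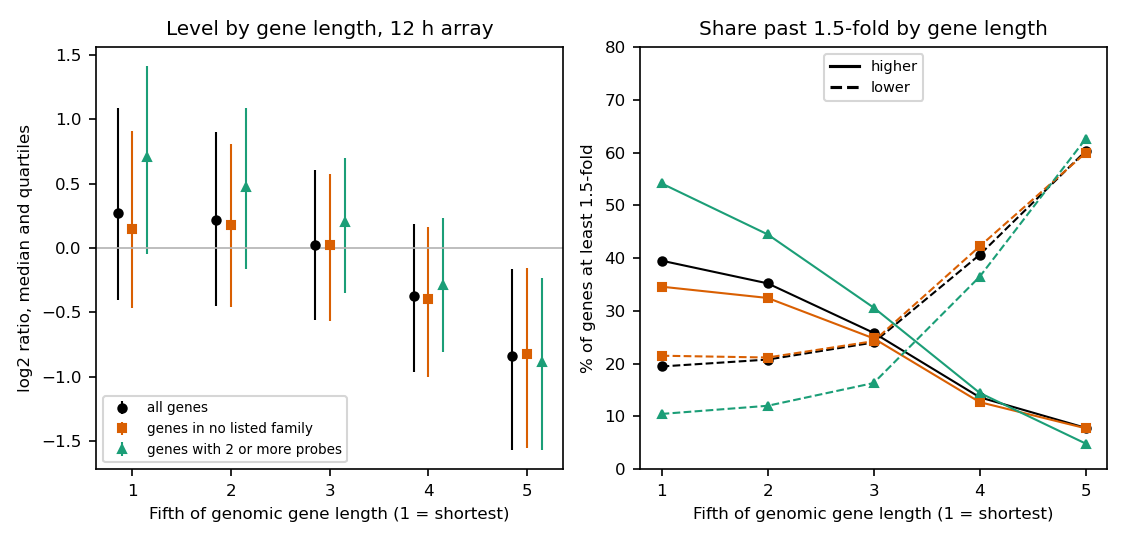
Left, median and quartiles of the 12 h log2 ratio (sheared over control, array median at 0) by class of genomic gene length; right, share of genes (%) at least 1.5-fold higher (solid) or lower (dashed). Symbols separate all genes, genes in no listed family and genes with 2 or more probes, and in all 3 the longest class has the lowest median (-0.84, -0.82 and -0.88).

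Markers of tendon and of other cell types gave no common direction. Of 21 tenocyte and fibroblast markers, 12 had a value, with a median of -0.07, 3 higher and 3 lower. Fibromodulin (Fmod) stood at 0.75 and vimentin (Vim) at 0.63 over 6 probes, against -1.85 for the PDGF receptor Pdgfra over 3 probes and -1.46 for Pdgfrb on 1 probe. The median was 0.07 over 6 of 10 leukocyte markers (-0.69 over the 2 of them with 2 or more probes), -0.40 over 4 of 8 endothelial markers and 0.21 over 6 of 8 skeletal muscle markers. It was -0.70 over 3 of 8 cartilage and bone markers, -0.36 over 6 of 7 epithelial markers and -0.54 over 4 of 6 adipocyte markers. Among leukocyte markers, Cd68 stood at 1.70 and Csf1r at -2.31, on 1 probe each. In a mixed RNA sample, fewer cells of a type and less RNA per cell cannot be told apart.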

How the data were processed

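RNA of sheared and control tendon cells had been hybridised to 1 two-colour array per time point. The deposited table holds 1 log ratio per spot, taken here as log2; the authors' scanner, background correction and normalization are not given in the sources used here. Each array was centred on its median. Gene names came from the platform annotation held by GEO and were updated by gene ID from RefSeq (GRCm38.p6): 21703 spots had 1 symbol, 1122 several and 19799 none. Families were taken by symbol pattern and 12 lists by symbol, and patterns that caught genes outside the family, such as S6 kinases among ribosomal proteins, were narrowed after family values had been seen. The length classes and the 4 promoters shown were also chosen after their values or motif matches had been seen, as was the stricter metal response core. Members and lists were chosen with earlier results of these data known.

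Genes were named as the 20 highest and 20 lowest with agreeing probes, 5 at each end among genes with 5 or more probes on one side of 0, up to 3 highest and 3 lowest agreeing members past 1.5-fold of each list, and the 3 highest and 3 lowest on 1 probe. Unnamed transcripts were passed over, and the result of 1 list is not reported here. Motifs were searched on both strands in 250 bases before each RefSeq start. The summary was tested on simulated data with large planted changes and with probe noise set below the pooled probe SD of 0.855. That test checks the calculation and not how reliable a 2-fold value is on this array. Spot intensities were not used, so depth is unknown, and precision is limited by there being 1 array. Python 3.11.15 with pandas 2.3.3 and numpy 2.4.6 was used.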

Additional observations from a re-analysis of the deposited data

Results flagged for a closer look

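7 genes with agreeing probes on both arrays stood at least 1.5-fold on opposite sides at 12 h and 6 h, out of 1833 with agreeing probes on both; each was picked out because the 1 array of each time moved the opposite way, and the difference was not tested. Tnfaip2, a TNF-induced gene, stood at -1.21 at 12 h and 1.29 at 6 h, and Ccl2, a chemokine for monocytes, at -0.78 and 1.64. Casp4, an inflammatory caspase, stood at -0.77 and 0.88. Flvcr1, a heme exporter, stood at -1.04 and 0.62, Hdac11 at -0.74 and 0.61, and Ptpn9 at -0.59 and 0.78. Cyct, the testis form of cytochrome c, ran the other way, at 0.76 at 12 h and -0.65 at 6 h. Without centring of either array, 5 of the 7 no longer stood 1.5-fold on opposite sides: Casp4, Flvcr1, Hdac11 and Ptpn9 fell to 0.56, 0.30, 0.29 and 0.46 at 6 h, and Cyct to 0.28 at 12 h. Ccl2, at -1.26 and 1.31, and Tnfaip2, at -1.69 and 0.97, still did.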

How the results depend on the processing

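No paired analysis was possible because each time point has 1 array and no test was made. Without centring, the 2-fold counts became 742 higher and 3763 lower, and 306 and 819 of those with agreeing probes; the median of all genes shifted by -0.479 to -0.62. At 1.5-fold the counts were 2618 and 3550, at 3-fold 616 and 1046, and over genes with 2 or more probes 970 and 925. Allowing any range between probes on one side of 0 gave 843 higher and 779 lower genes (52.0% higher), and a range of at most 0.5 log2 gave 475 and 229 (67.5% higher), against 60.1%. Centring runs of 900 spot numbers, the mean of probes and keeping probes with several symbols kept these 4 counts within 1.5 times. Leaving out the centring turns every positive family median below 0.479 negative. With 2 or more probes, 6 family medians moved by more than 1.5-fold: myosins to -1.23, chromodomain, bromodomain and SWI/SNF proteins to -1.19, phosphodiesterases to -0.37, ankyrin repeat proteins to -1.10, mitochondrial carriers to 0.79 and leukocyte markers to -0.69. The share at least 1.5-fold higher in the shortest and longest class of gene length was 26.0% and 3.65% without centring and 54.1% and 4.82% with 2 or more probes; in the shortest class it was 34.6% outside the listed families. These length alternatives were chosen after seeing the data. The planned split by protein length was not run, because no protein table was used here. Without replicate arrays, spot brightness or a dye swap, a dye effect on single genes cannot be told apart from shear.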

Other observations

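Spots without a gene in the annotation behaved much like named ones. The 19218 measured spots of this kind had a median of -0.01, and 21.6% were higher and 19.5% lower by 2-fold or more, against 19.9% and 19.9% of the 21389 measured spots with 1 symbol. The 1110 measured spots with several symbols had a median of 0.23, with 25.2% higher and 16.8% lower.

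When spot numbers were cut into runs of 900, the 48 run medians lay from -0.43 to 0.20 around the array median.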
